A study of Mus musculus with 12 samples.

Results

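The giant and scaffold proteins of the striated muscle sarcomere were described through 9 genes: Ttn, Neb, Mybpc1, Cmya5, Klhl31, Xirp2, Myom1, Myom2 and Actn2. They were found by their gene name among the 41174 distinct probes of a whole mouse genome array, where 27373 gene names occur, and had 30 probes between them. The genes were selected on their log ratios in these same comparisons, so the ratios below are a description with no test, and their direction is not independent evidence of a loss. Back skin of male C57BL/6J mice, 8 weeks old and shaved, received 200 µL per day of 3% MXD (minoxidil), of 10% N-CE (a cell extract of the cactus Notocactus ottonis) or of VC, a vehicle of propylene glycol, ethanol and water. The study asked which skin transcripts respond to MXD and N-CE, both tested as promoters of hair growth. Skin was sampled after 1, 2 or 3 weeks (1W, 2W and 3W), and each of the 9 groups was a pool of RNA from 6 mice. Every treated pool was compared with its week's VC pool on a pair of arrays, once labelled with Cy5 and once with Cy3, which made 12 arrays. A pool carries no spread between mice, and whole skin holds epidermis, dermis, follicles, fat and the thin muscle sheet beneath, so fewer muscle fibres and less RNA per fibre cannot be told apart.

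The sarcomere is the contractile unit of striated muscle. Titin (Ttn) is a giant elastic protein that runs from the Z-disc to the M-band, and nebulin (Neb) lies along the thin actin filament. The Z-disc is cross-linked by alpha-actinins such as Actn2, the M-band by the myomesins Myom1 and Myom2, and myosin filaments carry myosin-binding protein C, of which Mybpc1 is the slow skeletal form. Xirp2 binds actin at the borders of the myofibril, Cmya5 (myospryn) is a scaffold at the costamere and around the sarcomere, and Klhl31 is a muscle-enriched Kelch protein.

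Each gene was represented by its brightest probe over the 12 arrays, and values are log2 ratios of treated over VC with the SD of the 2 dye-exchanged arrays (n = 2 arrays of the same RNA), which covers measurement error only. A gene was called down-regulated when the error-model P of the array software was under 0.01 on both arrays, the arrays had the same direction and the mean fold was below 0.75, and up-regulated above 1.5-fold. The 4 arrays of a week lay on 1 slide and the MXD and N-CE comparisons of a week shared the VC pool, so a slide effect and a week effect cannot be told apart. Between 57.0% and 69.6% of transcript spots per channel were well above background, no spot was saturated, and 143 to 355 spots per array carried an outlier mark, none of them on a probe of the 9 genes. Over all genes well above background, the 2 arrays of a comparison correlated at 0.31 to 0.74, except at N-CE 2W, where r was -0.16. The N-CE 2W arrays thus did not share a ranking over all genes, and the values of the 9 genes there are given array by array.

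At MXD 2W all 9 genes were called down-regulated, with a median log2 ratio of -1.62 (range -1.80 to -1.10). At MXD 1W the median was -0.59 and 5 genes were called (Ttn, Mybpc1, Cmya5, Klhl31 and Myom1), and at MXD 3W it was -0.56 and 4 were called (Ttn, Neb, Mybpc1 and Cmya5). With the mean over all probes of a gene in place of the brightest, 3 were called at MXD 1W (without Ttn and Myom1) and 2 at MXD 3W (without Neb and Cmya5). Under N-CE the median was -0.01 at 1W with no gene called, -0.45 at 2W with no gene called (array medians -0.30 and -0.66), and -0.34 at 3W with only Mybpc1 called. Of all genes well above background in both groups, 11.1% were called down-regulated at MXD 2W, 1.39% at MXD 1W, 0.284% at MXD 3W, 2.77% at N-CE 1W, 0.0843% at N-CE 2W and 0.221% at N-CE 3W. No member was called up-regulated, against 6.91% of genes at MXD 2W, 1.31% at MXD 1W, 0.29% at MXD 3W, 0.603% at N-CE 1W, 0.132% at N-CE 2W and 0.214% at N-CE 3W. The median over all genes measured stayed between -0.01 and 0.02 in the 6 comparisons. Because these contrasts chose the genes, nothing is read from the distance to these shares.

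**Figure D1:**
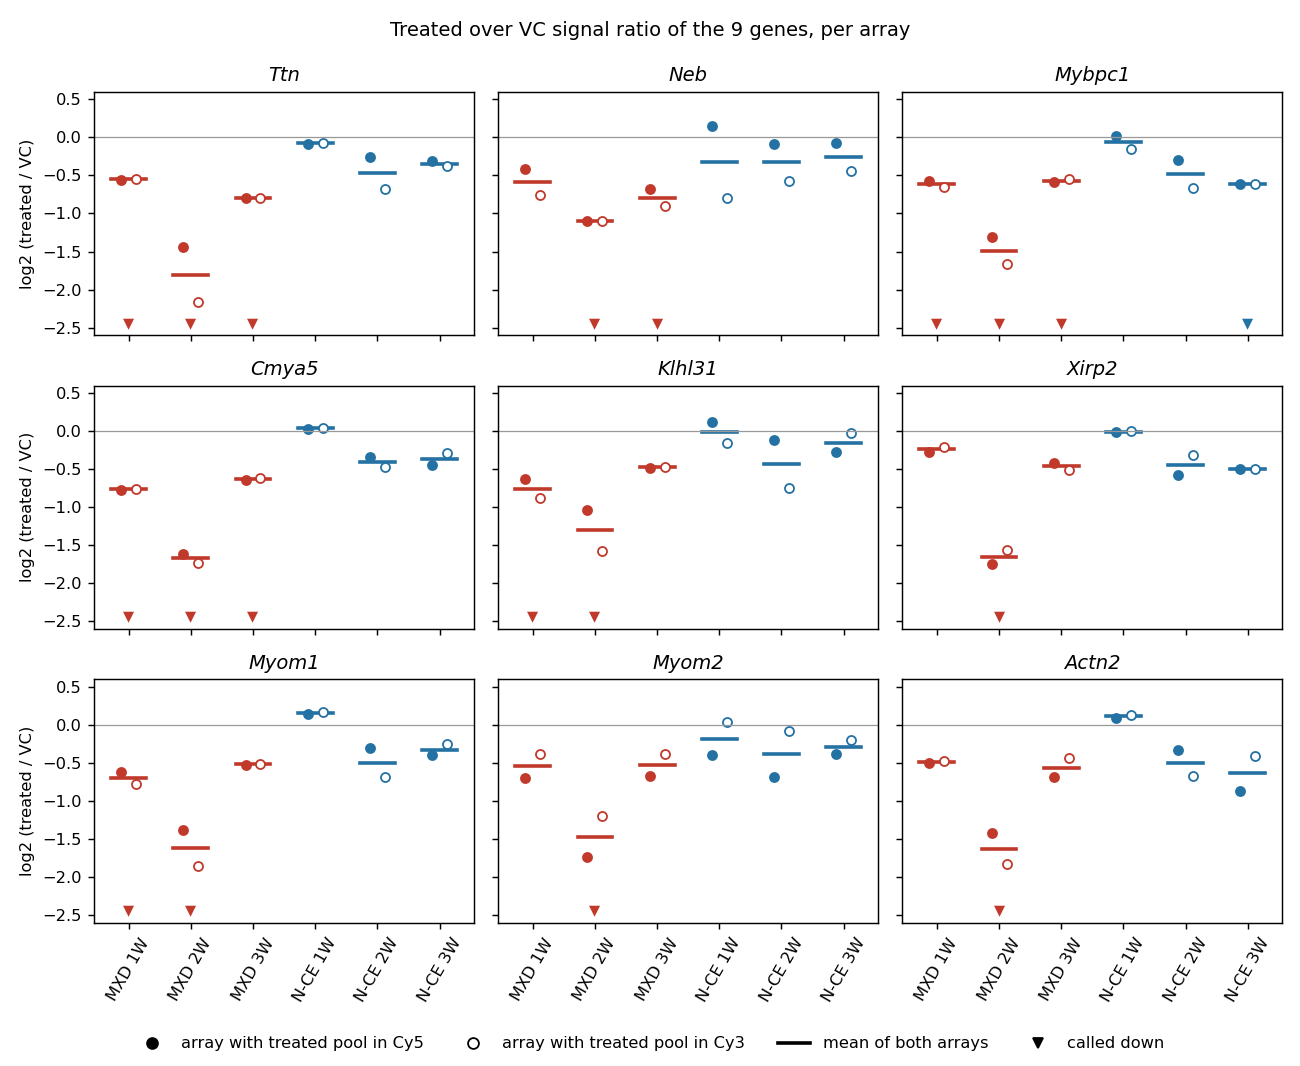
Log2 ratio of treated over VC (vertical axis) for the brightest probe of each of the 9 genes in the 6 comparisons (horizontal axis), MXD in red and N-CE in blue. Filled points are the array with the treated pool in Cy5, open points the array with it in Cy3, bars their mean, and triangles mark comparisons called down-regulated. Every gene is lowest at MXD 2W, and the N-CE 1W means lie between -0.33 and 0.16.

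By its brightest probe Ttn, the elastic filament, was the most reduced of the 9 at MXD 2W. With the mean over all probes of a gene Ttn was at -1.38, and Actn2, with 1 probe, was the lowest at -1.63. The brightest Ttn probe gave -1.44 on the array with the treated pool in Cy5 and -2.16 on the array with it in Cy3, a mean of -1.80 ± 0.51 or 3.49-fold lower than VC. At MXD 1W the arrays gave -0.56 and -0.55, and at MXD 3W -0.79 and -0.80, so the dye-exchanged readings lay almost on each other in these weeks. Under N-CE Ttn was close to VC at 1W (-0.08 ± 0.01), and it was not called at 2W, where the arrays gave -0.26 and -0.68, or at 3W (-0.34 ± 0.04).

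Neb, the thin-filament ruler, gave the least reduced ratio of the 9 at MXD 2W, -1.10 ± 0.01. It was called at MXD 3W (-0.80 ± 0.16) but not at MXD 1W, where the arrays gave -0.42 and -0.76. At N-CE 1W its arrays disagreed in sign, at 0.15 with the treated pool in Cy5 and -0.80 in Cy3, the widest spread among the genes (SD 0.67). The arrays of Neb at N-CE 2W gave -0.09 and -0.57 and at N-CE 3W -0.07 and -0.45, so the reading with the treated pool in Cy3 was the lower in all 6 comparisons, barely so at MXD 2W.

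Actn2, the Z-disc cross-linker, reached -1.63 ± 0.28 at MXD 2W, 3.09-fold lower than VC. Its ratios at MXD 1W (-0.49 ± 0.02) and MXD 3W (-0.56 ± 0.17) passed the fold but not the P criterion on both arrays. At N-CE 2W the arrays gave -0.33 and -0.66. At N-CE 3W it had the lowest mean of the 9 genes, -0.64 ± 0.33, yet the arrays gave -0.87 and -0.40 and it was not called. Xirp2, the actin-binding Xin-repeat protein, was reduced 3.15-fold at MXD 2W (-1.66 ± 0.13). At MXD 1W it was the least reduced member, at -0.27 and -0.21, and at N-CE 1W its arrays gave -0.01 and 0.00. Its N-CE 2W arrays gave -0.58 and -0.32. Under both treatments it was therefore near VC or modestly below it at 1W, and at 3W its values were -0.46 ± 0.07 for MXD and -0.50 ± 0.00 for N-CE.

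The M-band proteins Myom1 and Myom2 were 3.07-fold and 2.76-fold lower than VC at MXD 2W (-1.62 ± 0.33 and -1.47 ± 0.39). Their dye readings ran in opposite orders there: Myom1 gave -1.38 in Cy5 and -1.85 in Cy3, Myom2 -1.74 in Cy5 and -1.19 in Cy3. Myom1 was called at MXD 1W (-0.70 ± 0.11), where Myom2 gave -0.69 and -0.38 and was not. That Myom1 call rests on its brightest probe: the other probes gave -0.18 ± 0.10 and -0.15 ± 0.13 at MXD 1W, and the mean over the 3 was -0.34 and not called. At N-CE 1W Myom1 was slightly above VC on both arrays (0.14 and 0.18) and Myom2 was at -0.40 and 0.04. At N-CE 2W the arrays gave -0.30 and -0.68 for Myom1 and -0.69 and -0.08 for Myom2.

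Mybpc1, the slow myosin-binding protein C, was the only member called in 4 comparisons. It fell to 0.654-fold of VC at MXD 1W, 0.357-fold at MXD 2W, 0.675-fold at MXD 3W and 0.654-fold at N-CE 3W. The N-CE 3W readings of -0.61 and -0.62 lay beside the MXD 3W readings of -0.59 and -0.54. Its N-CE 2W arrays gave -0.30 and -0.67. Cmya5, the costameric scaffold, was called in all 3 MXD weeks, with -0.76 ± 0.01, -1.67 ± 0.09 and -0.63 ± 0.02, and it had the closest arrays of the members at N-CE 2W (-0.34 and -0.47). Klhl31, the Kelch protein, was called at MXD 1W (-0.76 ± 0.18) and MXD 2W (-1.30 ± 0.38). Its N-CE 2W arrays gave -0.11 and -0.74. At MXD 3W they gave -0.48 and -0.47 with P above 0.01. By the brightest probes Klhl31 was the member nearest VC at N-CE 3W, at -0.27 and -0.03. Its second probe gave -0.46 and -0.59 there, and with the mean over all probes of a gene Ttn was nearest VC (-0.03).

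At N-CE 2W all 9 genes were negative on both arrays, from -0.33 to -0.50 in the mean, although 7 of 9 were lower on the array with the treated pool in Cy3. Without the P criterion 6 of 9 lay past the 0.75-fold limit at N-CE 2W, where 1.45% of all genes did. The same count was 3 of 9 at N-CE 3W (2.53% of all genes), 0 of 9 at N-CE 1W (5.65%), 8 of 9 at MXD 1W (4.96%), 9 of 9 at MXD 2W (20.7%) and 9 of 9 at MXD 3W (1.83%). Set side by side through the shared VC pool, the mean of MXD minus N-CE was below 0 in all 9 genes at 1W (-0.86 to -0.24) and at 2W (-1.33 to -0.77). For Neb at 1W the difference was -0.57 with the treated pools in Cy5 but 0.04 with them in Cy3. At 3W the mean of MXD minus N-CE ran from -0.54 to 0.08 and was below 0 in 6 of 9. The treatments thus lay closer at 3W than at 2W in their medians (-0.24 and -1.12).

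The sequences behind these readings are the 60-base probes of the array, and those of Neb, Actn2, Mybpc1 and Klhl31 are shown because each has an open forward reading frame and stands for its gene above. They are in lower case, 5′ to 3′ on the transcript strand, as the array design gives them.
Neb: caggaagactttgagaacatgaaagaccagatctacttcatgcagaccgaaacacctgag
Actn2: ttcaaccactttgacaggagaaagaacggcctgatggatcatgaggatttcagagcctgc
Mybpc1: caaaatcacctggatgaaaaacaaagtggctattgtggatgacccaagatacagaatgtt
Klhl31: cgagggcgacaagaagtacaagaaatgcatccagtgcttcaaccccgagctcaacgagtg
In the mm9 build used by the array files, the Neb probe lay at chr2:52168677-52168736 on the minus strand and the Mybpc1 probe at chr10:87985837-87985896 on the minus strand. The Klhl31 probe lay at chr9:77503483-77503542 on the plus strand. The Actn2 probe spanned an exon junction, with its 60 bases spread over chr13:12364990-12367362 on the minus strand. Of the 30 probes, 25 matched a RefSeq transcript of the same gene symbol, 5 spanned a junction, 25 had at least 1 open forward frame, and GC content ran from 35% to 53.3%.

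Ttn had 9 probes, and 6 of those with an open forward frame in a RefSeq transcript are shown because the ratio differed along the gene. Positions are the first base of the probe in its listed transcript.
Ttn, transcript base 5390: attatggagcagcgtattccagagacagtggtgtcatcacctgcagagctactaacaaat
Ttn, transcript base 27470: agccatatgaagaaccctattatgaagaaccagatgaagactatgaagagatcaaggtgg
Ttn, transcript base 29311: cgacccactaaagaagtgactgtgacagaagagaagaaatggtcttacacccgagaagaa
Ttn, transcript base 60073: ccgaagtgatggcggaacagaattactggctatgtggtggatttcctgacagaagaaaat
Ttn, transcript base 73327: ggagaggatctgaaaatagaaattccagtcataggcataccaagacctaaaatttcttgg
Ttn, transcript base 93881: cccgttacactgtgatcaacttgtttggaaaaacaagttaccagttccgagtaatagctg
The first of these lay at mm9 chr2:76783527-76783586 and the last at chr2:76551742-76551801, both on the minus strand, and the brightest probe, at transcript base 101107, lay at chr2:76542548-76542607 near the 3′ end with no open frame. The coordinates listed for the probe at base 60073 covered 43 bases and lay past the 3′-most probe, so that probe is placed by its transcript position only. The probes at bases 1949 and 5390 are listed on 1 RefSeq transcript and those from base 27470 to 101107 on another. The probe at base 16677 is listed on a different, non-RefSeq transcript model. Positions on different transcripts are not on 1 scale.

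All 9 Ttn probes were called down-regulated at MXD 2W, from -1.12 at base 1949 to -1.80 at base 101107. At MXD 1W only 2 were called, at base 16677 (-0.77 ± 0.09) and at base 101107 (-0.55 ± 0.01). The probes at bases 60073 and 93881 were near VC at MXD 1W, at -0.08 ± 0.08 and -0.07 ± 0.16, although at MXD 3W the same probes gave -0.73 ± 0.01 and -0.64 ± 0.00. At N-CE 2W 3 Ttn probes were called, those at bases 60073 (-0.58 and -0.94 on the arrays), 73327 (-0.75 and -0.79) and 93881 (-0.64 and -0.91), while the brightest probe was not. The neighbouring probes at bases 27470 (-0.42 and -1.02) and 29311 (-0.39 and -1.06) had similar means, -0.72 and -0.73, and missed the call through the P of the array with the treated pool in Cy5, so the call does not set the 3 probes apart. At N-CE 3W the 3 called probes were above VC on both arrays, at 0.41 ± 0.14, 0.17 ± 0.10 and 0.15 ± 0.10, whereas the probes at bases 16677 and 101107 were below VC at -0.37 ± 0.12 and -0.34 ± 0.04. The position pattern was noticed in these data and was not tested, and the probes differed in mean signal from 7.51 to 14.55 on the log2 scale.

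**Figure D2:**
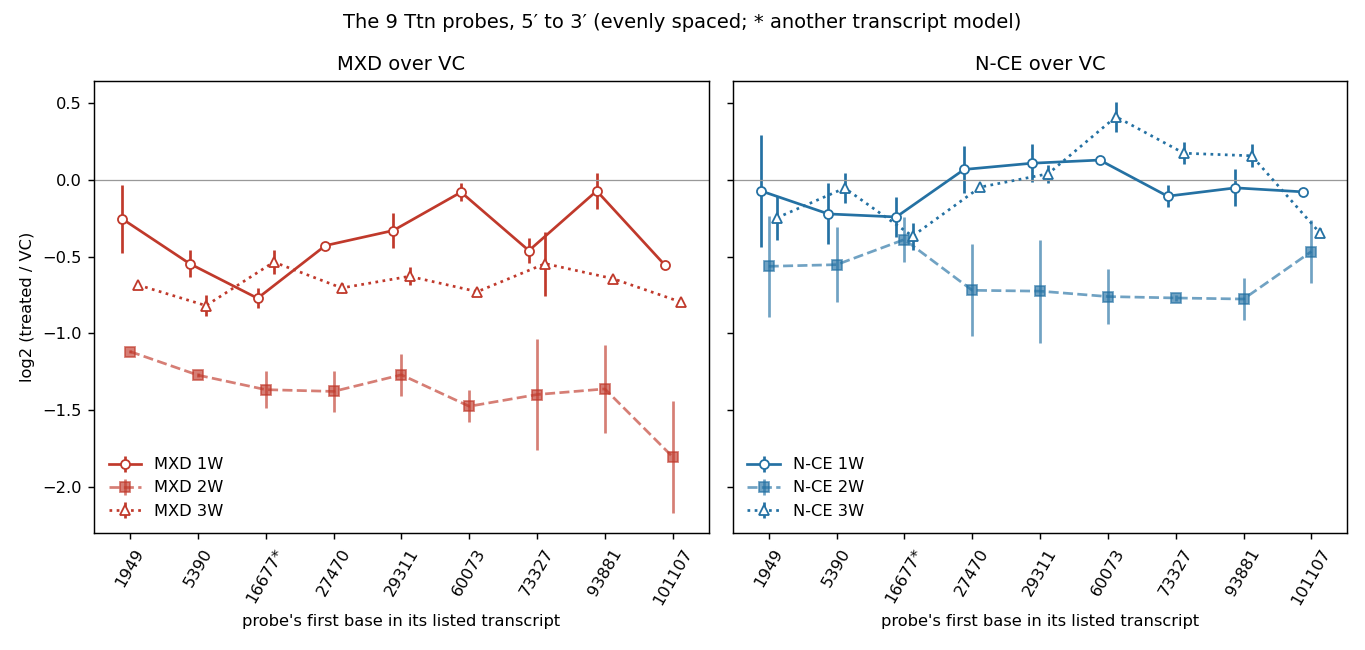
Log2 ratio of treated over VC (vertical axis) for the 9 Ttn probes from 5′ to 3′, evenly spaced and named by their first transcript base (horizontal axis), with MXD on the left and N-CE on the right. Points are the mean of 2 arrays, vertical lines run to the 2 array values, and * marks the probe on a non-RefSeq transcript model. Bases 1949 and 5390 are numbered on another RefSeq transcript than those from 27470 on. The probes at bases 60073, 73327 and 93881 lie near -0.77 at N-CE 2W and above 0 at N-CE 3W.

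Over all probes of the 9 genes, 29 of 30 were well above background in both groups in every comparison. The exception, a Neb probe outside the RefSeq transcripts, was above background in 9 of 24 channels and is given no fold. Of the 29, 29 were called down-regulated at MXD 2W (9.31% of all such probes), 8 at MXD 1W (1.24%) and 12 at MXD 3W (0.261%). At N-CE 1W 0 were called (2.19%), at N-CE 2W 5 (0.084%) and at N-CE 3W only the Mybpc1 probe, 1 of 29 (0.22%). The 5 at N-CE 2W were the 3 Ttn probes named above, a Neb probe at transcript base 1830 (-0.63 and -0.68) and a Myom1 probe on a cDNA-derived transcript (-0.56 and -0.56), none of them the brightest probe of its gene. Probes of a gene share its transcripts and are not independent.

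Probes of a gene did not always agree in size. The Myom1 probes at MXD 2W ran from -1.62 for the brightest to -0.86 for a dim probe on another cDNA-derived transcript, and the 3 Xirp2 probes from -1.66 to -1.02. The Klhl31 probes agreed at MXD 1W (-0.76 and -0.76), and the second was called at MXD 3W (-0.67 ± 0.01) where the brightest was not. The second Myom2 probe, on a transcript outside RefSeq, was above VC at N-CE 2W (0.05 and 0.30 on the arrays) and was the only probe of the 29 with both arrays positive there.

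Levels were set as log2 signal minus the 75th percentile of the channel, a scale on which channels, but not probes, can be compared. Ttn stood at 5.38 ± 0.07 in VC at 1W (SD over 4 channels of the same pool), 4.80 ± 0.02 in MXD and 5.33 ± 0.09 in N-CE (2 channels each). At 2W the Ttn levels were 5.31 ± 0.20, 3.66 ± 0.39 and 4.67 ± 0.23 in VC, MXD and N-CE, and at 3W 4.83 ± 0.23, 4.18 ± 0.02 and 4.34 ± 0.31. The order VC, N-CE, MXD held in each week for Ttn, but its VC and N-CE channels overlapped at 1W and at 3W. The levels of MXD and N-CE at 3W differed by less than the spread of the N-CE channels.

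Neb levels were 4.10 ± 0.21, 3.49 ± 0.01 and 3.79 ± 0.40 in VC, MXD and N-CE at 1W. The 2W pools gave 3.97 ± 0.08, 2.87 ± 0.09 and 3.64 ± 0.24 for Neb, and the 3W pools 2.89 ± 0.12, 1.99 ± 0.13 and 2.73 ± 0.30, with MXD lowest in each week. Myom2 levels in VC were 5.93 ± 0.15, 5.54 ± 0.42 and 5.13 ± 0.39 at the 3 weeks, with 4.26 ± 0.01 in MXD at 2W. At 3W Myom2 was lower in N-CE (4.60 ± 0.32) than in MXD (4.84 ± 0.08), a gap within the spread of the channels, and Actn2 was too (2.11 ± 0.53 and 2.22 ± 0.04). MXD was the lowest pool for all 9 genes at 1W and again at 2W, but for 7 of 9 at 3W.

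All MXD channels lay below all VC channels in 9 genes at 1W, 9 at 2W and 8 at 3W, as did 21.1%, 26.3% and 8.27% of all genes above background. For N-CE this was so in 0 genes at 1W, 9 at 2W and 3 at 3W, beside 17.2%, 6.78% and 11% of all genes. The VC level itself was lower at 3W than at 1W in 9 of 9 genes, by 0.09 for Xirp2 to 1.20 for Neb, and in 8 of 9 the 3W channels lay below all 1W channels. VC at 1W and 3W were different pools on different slides, so the age of the skin and the slide cannot be told apart.

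**Figure D3:**
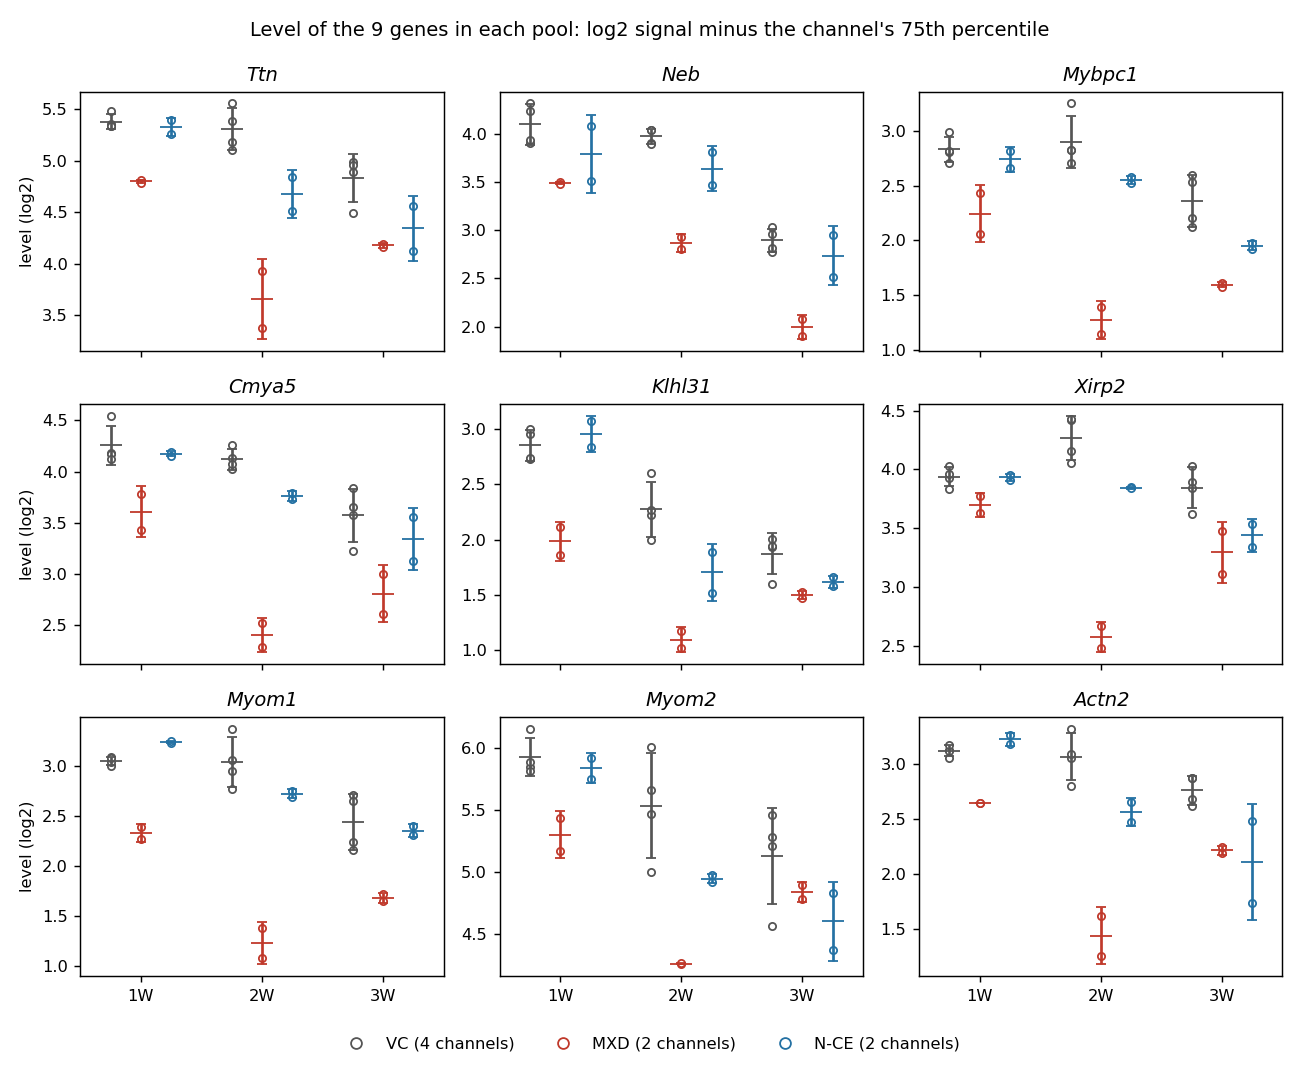
Level of each gene (vertical axis, log2 signal minus the 75th percentile of its channel) in the VC, MXD and N-CE pools at 1W, 2W and 3W (horizontal axis). Open points are channels (4 for VC, 2 for each treated pool) and bars show mean ± SD. The MXD channels of all 9 genes lie below the VC channels at 2W, and the N-CE channels lie between them.

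The neighbouring sarcomere proteins were read from lists of genes. Of 16 thin-filament genes measured at MXD 2W, 11 were called down-regulated and 1 up-regulated, with a median of -1.38. Lmod3, a leiomodin that nucleates thin filaments, was the lowest (-1.57 ± 0.11) and Tnni1, slow troponin I, the highest (1.14 ± 0.18). Of 10 thick-filament genes 9 were called down-regulated (median -1.40), from Myh1, a fast myosin heavy chain (-1.55 ± 0.21), to Mybph, a myosin-binding protein (-1.15 ± 0.19), among those above background in both groups. Of 20 Z-disc and titin-linked genes 18 were called down-regulated (median -1.41), with myotilin (Myot) lowest at -1.68 ± 0.09 and Pdlim5, also expressed outside muscle, highest at 0.17 ± 0.34. Beside these, the median of all genes measured at MXD 2W was 0.02.

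Of 9 M-band and myomesin-linked genes 7 were called down-regulated and 1 up-regulated (median -1.40). Smpx, a small muscle protein, was lowest (-1.76 ± 0.46) and Fhl2, a LIM protein also found outside muscle, highest (0.84 ± 0.27). Of 5 muscle Kelch genes 4 were called (median -1.45), with Klhl38 lowest (-1.53 ± 0.06) and Cul3, the ubiquitous ligase scaffold that Kelch proteins bind, highest (-0.33 ± 0.15) and not called. Of 14 costamere and dystrophin-complex genes 8 were called (median -1.10), from desmin (Des, -1.46 ± 0.32) to the syntrophin Sntb1 (0.27 ± 0.04).

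Against the joint median of the thin- and thick-filament genes, -1.38 at MXD 2W and -0.37 at MXD 3W, 7 of 9 members lay below at MXD 2W (all but Neb and Klhl31) and 9 of 9 at MXD 3W. The difference was also taken on each array from the filament median of that array and averaged. It was -0.44 ± 0.32 for Ttn at MXD 2W and -0.43 ± 0.03 at MXD 3W (SD over 2 arrays). For Neb it was 0.27 ± 0.19 at MXD 2W and -0.43 ± 0.13 at MXD 3W, so Neb lay above the filament genes at 2W and below them at 3W. Klhl31 differed by 0.06 ± 0.18 at MXD 2W, less than the spread of its arrays. Myom2 counted as below at MXD 2W although its differences on the 2 arrays were -0.51 and 0.31. The counts and differences rest on the brightest probe of each gene. With the mean over all probes of a member, Ttn was level with the filament median at MXD 2W (-1.38). Myom1 (-1.21) and Myom2 (-1.23) then lay above it, and Klhl31 (-1.39) marginally below. At MXD 3W Xirp2 (-0.36) then lay marginally above. These differences were not tested. The members were selected on their ratios in these comparisons, so nothing is read from how many lay below.

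At N-CE 1W the medians of these lists were -0.11 for thin filament, -0.36 for thick filament, 0.01 for Z-disc, 0.07 for M-band, 0.08 for Kelch and 0.12 for costamere genes, beside -0.01 for the 9 genes and 0.02 for all genes. Individual genes did change there. Of the thin-filament genes 2 of 16 were called down-regulated, of the thick-filament genes 3 of 12 and of the M-band genes 1 of 7, and Klhl38 was called up-regulated (0.87 ± 0.00). The largest changes among the called genes were in slow-fibre genes that were not well above background in N-CE on either array. Myh7, the slow myosin heavy chain, was at least 13.2-fold lower than VC. Myl2, a slow myosin light chain, was at least 5.95-fold lower and Tnni1 at least 1.58-fold. These bounds set the N-CE signal at no less than the dimmest signal called well above background on its array, and the 3 genes were chosen after their values were seen. Myh7 was also called down-regulated at MXD 1W, where the treated pool was well above background on 1 of 2 arrays. Both comparisons share the 1W VC pool, so its own level and a treatment effect cannot be told apart. Tnnc1 had the lowest thin-filament mean at N-CE 1W (-1.62), but was not well above background in both groups and was not called. The others called at N-CE 1W were Tnnt1, slow troponin T (-0.76 ± 0.21), Mybph (-0.63 ± 0.02) and Fhl2 (-0.87 ± 0.19). Ankrd1, a stretch-responsive ankyrin repeat protein that binds titin, was the highest Z-disc gene (0.58 ± 0.00) without being called, and Lmod2 (0.50 ± 0.08), Myh2 (0.42 ± 0.00), Murc (0.18 ± 0.28) and Sgcd (0.59 ± 0.08) were the highest of their lists. Among genes well above background in both groups, Actn3, the fast-fibre alpha-actinin (-0.54 ± 0.22), Klhl30 (-0.01 ± 0.40) and Dmd (-0.12 ± 0.35) were the lowest of their lists and were not called.

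At MXD 1W 6 of 20 Z-disc and titin-linked genes were called down-regulated and 2 up-regulated, Ankrd1 and Pdlim5. Ankrd1 gave 3.13 and 2.94 on the arrays (mean 3.03 ± 0.14) and Pdlim5 0.59 ± 0.04, in the same pool in which Ttn was called down-regulated. Myog, the myogenic regulator myogenin (1.06 ± 0.08), and Chrna1, a subunit of the muscle acetylcholine receptor (0.64 ± 0.06), were also called up-regulated at MXD 1W. At MXD 2W both were called down-regulated (-1.36 ± 0.68 and -1.29 ± 0.08). Ankrd1 was called down-regulated at MXD 2W and N-CE 3W, where the treated pool was well above background on only 1 of 2 arrays, so no fold is given. These 4 genes and Myh3 were chosen after their values were seen. Of 9 genes of the myogenic and immature-fibre list measured at MXD 1W, 3 were called up-regulated (Myog, Chrna1 and Myh3, the embryonic myosin) and 1 down-regulated, with a median of 0.32. Pax7 had the lowest mean of the 9 (-0.92). The log2 of the summed level of the 10 listed genes went the other way. It was 4.95 to 5.00 in MXD beside 5.55 to 5.67 in VC at 1W, so the list did not move as 1. At MXD 2W 4 of 6 were called down-regulated, with Myh8, the perinatal myosin, lowest (-1.59 ± 0.08) and Ncam1 highest (0.33 ± 0.13).

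**Figure D4:**
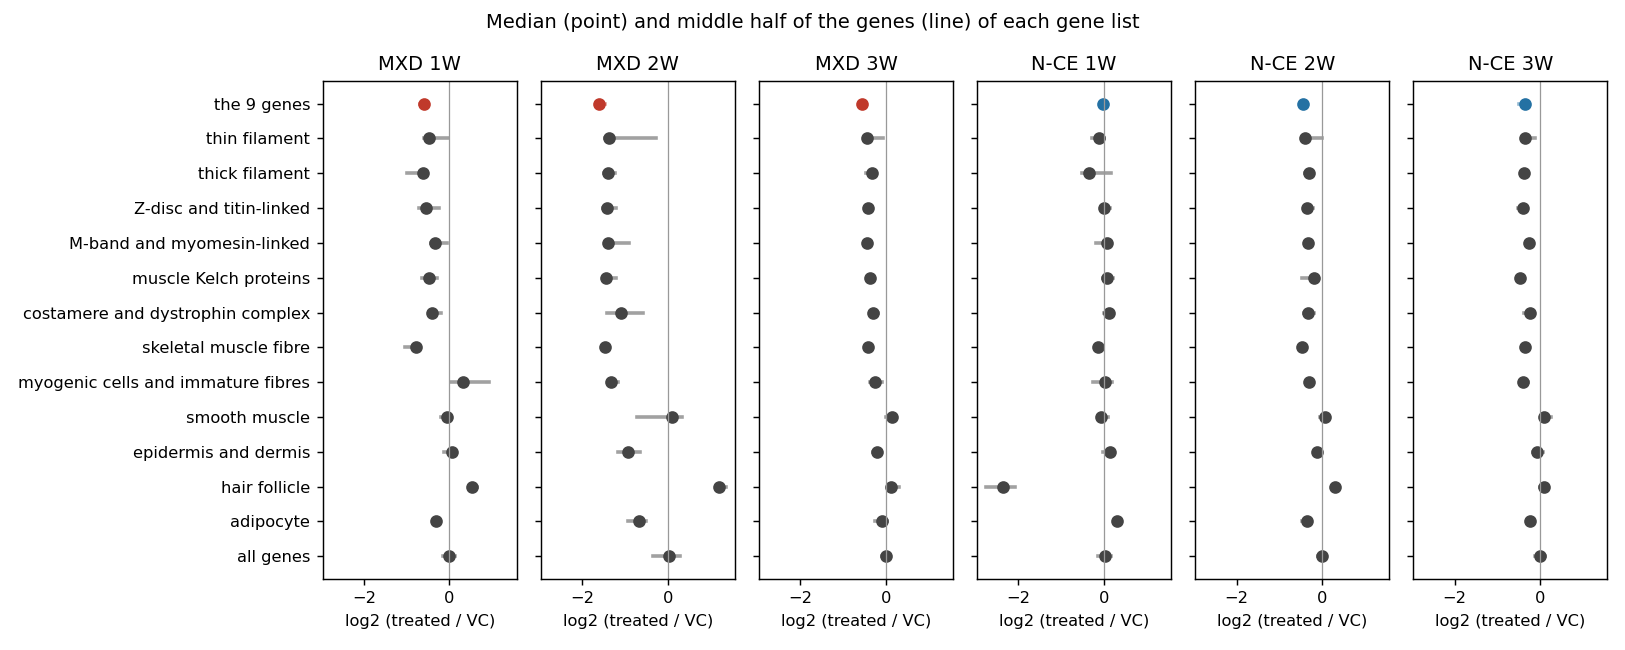
Median log2 ratio of treated over VC (horizontal axis) of the 9 genes and of each gene list in the 6 comparisons, with lines over the middle range of genes from the lower to the upper quartile. The filament, Z-disc and M-band lists lie between -1.38 and -1.41 at MXD 2W beside a hair follicle median of 1.20, and the hair follicle list is at -2.37 at N-CE 1W, where the 9 genes are at -0.01.

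Markers of other cells moved in the same pools. All 5 skeletal muscle fibre markers (Acta1, Ckm, Myh4, Tnnt3 and Des) were above background in every channel, so muscle was present in all pools, and the log2 of their summed level was 8.14 to 8.36 in VC, 6.61 to 7.32 in MXD and 7.69 to 8.02 in N-CE at 2W. At N-CE 1W it was 8.13 to 8.36 beside 8.37 to 8.53 in VC. All 5 were called down-regulated at MXD 1W and at MXD 2W and none in the other comparisons. Of 11 hair follicle genes all were called up-regulated at MXD 2W (median 1.20, from Krt85 at 1.06 ± 0.42 to Lef1 at 1.47 ± 0.08) and all were called down-regulated at N-CE 1W (median -2.37, from Tchh at -3.06 ± 0.00 to Lef1 at -1.92 ± 0.02 among those above background in both groups). Their summed level was 8.22 to 9.08 in VC, 9.65 to 9.75 in MXD and 9.06 to 9.24 in N-CE at 2W, and 5.80 to 6.27 in N-CE at 1W beside 8.27 to 8.93 in VC.

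Of 10 epidermis and dermis genes 6 were called down-regulated at MXD 2W (median -0.92), from Krt10 at -1.43 ± 0.39 to Krt5 at 0.09 ± 0.46, and none in the other comparisons. Their summed level at 2W was 9.54 to 10.06 in VC, 9.12 to 9.43 in MXD and 9.62 to 9.65 in N-CE. Of 6 adipocyte genes 3 were called at MXD 2W (median -0.67), from Plin1 (-1.08 ± 0.23) to Fabp4 (-0.09 ± 0.03), and their summed level was 7.60 to 7.92 in VC and 7.08 to 7.23 in MXD at 2W. At N-CE 2W 1 of the 6 was called, leptin (Lep, -0.66 ± 0.12), a gene chosen after its value was seen. At N-CE 1W these lists ran from Col1a1 (-0.16 ± 0.05) to Lum (0.42 ± 0.04) and from Lpl (0.04 ± 0.01) to Adipoq (0.58 ± 0.02), with no gene called. Smooth muscle genes, which mark vessels and the arrector muscle, had a median of 0.10 at MXD 2W with 3 of 8 called down-regulated. They ran from Lmod1 (-1.18 ± 0.31) to Smtn (0.55 ± 0.46) there. Their median was -0.07 at N-CE 1W. Among those above background in both groups they ran from Synpo (-0.19 ± 0.07) to Lmod1 (0.37 ± 0.20) at N-CE 1W. The part of skin composition in the ratios of the 9 genes was not tested.

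Over the 12 arrays, the members correlated with the mean of the other members at Pearson r of 0.67 for Neb, 0.78 for Myom2 and 0.90 to 0.98 for the other 7. Among 14626 genes above background on all arrays, the 8 outside the set with the highest correlation to the mean of the 9 were Nrap, Stap2, Myo18b, Usp13, Hrc, Mboat2, Slc25a12 and Cox8b, with r from 0.985 to 0.996. Nrap, a nebulin-related anchoring protein of the myofibril, gave -1.44 at MXD 2W and -0.04 at N-CE 1W, and Myo18b, an unconventional myosin of striated muscle, gave -1.38 and -0.08. Hrc, a calcium-binding protein of the sarcoplasmic reticulum, gave -1.52 and -0.19, and Cox8b, a muscle subunit of cytochrome oxidase, gave -1.49 and 0.09. Stap2 (-0.80 and 0.17), Slc25a12 (-0.99 and -0.10) and Mboat2 (-1.01 and 0.21) changed less at MXD 2W. Usp13 (-1.69 and 0.10) changed most of the 8 there. The 12 points share slides, VC pools and, in pairs, the same RNA, and the MXD 2W arrays lie far from the rest, so these correlations are descriptive.

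Promoters were compared because the genes moved together at MXD 2W. RefSeq promoter sequence (GRCm38.p6) was given for 7 of the 9 genes, and the 250 bases before the transcription start were searched on both strands for the MEF2 motif, the CArG box, the E-box CANNTG and CATTCC. A MEF2 match was found in Ttn and Xirp2 and a CArG match in Myom1, beside 2.92% and 1.47% of 32851 promoters. The genes were selected on their ratios and enrichment was not tested, so nothing is read from this contrast. The promoters of Ttn, Xirp2 and Myom1 are shown 5′ to 3′ on the gene's strand with the match in capitals.
Ttn: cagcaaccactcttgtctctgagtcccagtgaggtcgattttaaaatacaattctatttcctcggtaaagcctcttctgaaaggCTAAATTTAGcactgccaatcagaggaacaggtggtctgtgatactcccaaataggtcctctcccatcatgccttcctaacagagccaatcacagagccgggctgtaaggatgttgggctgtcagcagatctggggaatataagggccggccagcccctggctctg
Xirp2: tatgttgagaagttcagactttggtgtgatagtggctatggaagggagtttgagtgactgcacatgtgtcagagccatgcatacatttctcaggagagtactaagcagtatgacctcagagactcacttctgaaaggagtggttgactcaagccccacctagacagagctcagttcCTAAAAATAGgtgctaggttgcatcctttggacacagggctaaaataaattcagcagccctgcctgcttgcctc
Myom1: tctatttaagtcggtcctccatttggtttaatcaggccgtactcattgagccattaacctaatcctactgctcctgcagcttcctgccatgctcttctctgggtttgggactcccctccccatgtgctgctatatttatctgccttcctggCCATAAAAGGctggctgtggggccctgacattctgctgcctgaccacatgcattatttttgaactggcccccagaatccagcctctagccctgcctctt
The windows were chr2:76982548-76982797 on the minus strand for Ttn, chr2:67445752-67446001 on the plus strand for Xirp2 and chr17:71019307-71019556 on the plus strand for Myom1. The matches began 166 bases before the start in Ttn, 74 in Xirp2 and 99 in Myom1. CANNTG was found in 6 of 7 promoters, beside 66.2% of all promoters, and CATTCC in 0 of 7, beside 12.6%. The 3 genes with a MEF2 or CArG match had ratios of -1.80, -1.66 and -1.62 at MXD 2W, and the other 4 with a promoter -1.67 for Cmya5, -1.63 for Actn2, -1.49 for Mybpc1 and -1.30 for Klhl31, so the ranges of the ratio overlapped.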

How the data were processed

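Back skin RNA pools of 6 mice per group were hybridised on 2-colour whole mouse genome arrays of 60-base probes. The authors scanned the arrays and ran Agilent Feature Extraction, which the submitters' notes give as version 11.0.1.1 and the file headers as 12.0.3.1. The deposited files hold, per spot, the background-subtracted and dye-normalised processed signal (an intensity), its log10 ratio of Cy5 over Cy3, the error-model p-value of that ratio, and flags for outliers, saturation and signal above background. The deposited series table holds the same log10 ratios, to within 5e-09 on every array. Probe position, coordinates (mm9) and gene names are those of the array design.

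Ratios were oriented as treated over VC, converted to log2, averaged over spots of a probe without outlier spots, and averaged over the 2 dye-exchanged arrays as 1 technical replicate. A call needed P under 0.01 on each array, 1 direction, and a mean fold past the study's limits of 1.5 (up) or 0.75 (down). With 1 pool per group no test between mice was possible, and no p-value is given for the 9 genes. A list gene counted as measured when its brightest probe was well above background in at least 1 group on both arrays, and background shares used genes above background in both groups. Levels were log2 signals minus the 75th percentile of the channel. Alternatives were normexp background correction with an offset of 50 and loess (limma 3.58.1, R 4.3.3), each dye orientation alone, all probes of a gene, the series table, outlier spots kept, both groups above background, and other P and fold limits. Calls and the dye turn were tested on simulated data. Computation ran in Python 3.11.15 (numpy 2.4.6, pandas 2.3.3). The named genes were the members by their brightest probe, the highest and lowest gene of each list at MXD 2W and N-CE 1W (restricted to genes detected in each group), and the 8 genes most correlated with the members. The members and the gene lists were chosen with earlier results of these data known. The number of arrays, not counting, limits the precision.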

Additional observations from a re-analysis of the deposited data

Results flagged for a closer look

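Cmya5, Myom1 and Actn2 were below VC on both arrays at MXD 1W and above VC on both arrays at N-CE 1W, so that N-CE minus MXD was 0.80, 0.86 and 0.60 on the log2 scale. The difference was not tested, and the 2 comparisons share the VC pool. Under N-CE the same genes were above VC on both arrays at 1W and below VC on both arrays at 2W and 3W. N-CE at 2W minus 1W was -0.44 for Cmya5, -0.65 for Myom1 and -0.61 for Actn2, and N-CE at 3W minus 1W was -0.40, -0.49 and -0.75 for the same genes. These differences were not tested either, and the weeks lay on different slides. The N-CE 1W values themselves were small (0.04, 0.16 and 0.12) and none was called.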

How the results depend on the processing

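The median of the 9 genes was compared under 7 alternatives in each of the 6 comparisons, and 32 of 42 medians moved by less than the SD between the array medians. With only the array in Cy3 the median was -0.65 at MXD 1W and -0.37 at N-CE 3W, and with only the array in Cy5 it was 0.0304 at N-CE 1W, -1.42 at MXD 2W and -0.39 at N-CE 3W. With the mean over all probes of a gene it was -0.49 at MXD 1W, 0.0235 at N-CE 1W, -1.39 at MXD 2W and -0.30 at N-CE 3W. With normexp and loess it was -0.0356 at N-CE 1W. The sign changed only at N-CE 1W, where the median was within 0.04 of 0 in every setting. Of 36 counts of members called down-regulated 28 stayed within 1.5 times. With the mean over probes (P as the median over probes) 3 genes were called at MXD 1W and 2 at MXD 3W. Without the P criterion 8 were called at MXD 1W, 6 at N-CE 2W, 9 at MXD 3W and 3 at N-CE 3W, and with P on at least 1 array 6 at N-CE 2W and 2 at N-CE 3W. The N-CE 2W count thus depends on the P criterion. Of 54 single-gene values, 2 or 3 took the opposite sign with either array alone and 2 with the mean over probes, none of them called, and outlier spots kept or the series table changed none. The causes were not tested. No paired analysis was possible because each group is 1 pool. Leaving out an array leaves 1 reading of the same RNA, and the 2 arrays of a comparison say nothing of the spread between mice, between slides or between weeks.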
